A study of Mus musculus with 14 samples.

Results

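The genes Cybb, Cyba, Ncf1, Ncf4 and Rac2 encode parts of the NADPH oxidase of phagocytes, and the binding of 13 transcription factors at them was mapped. These are 5 of 21627 protein-coding genes of the mouse build mm10. They were chosen by name, and their peaks were all those whose midpoint fell in a locus, meaning the gene with 50 kb on either side. The lists held 296 such peaks out of 279955 used, and merging peaks that touched or overlapped gave 81 regions in the loci out of 121980.

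ChIP-seq, which sequences the DNA that an antibody against a bound protein pulls down, was done on Hoxb8-FL cells. This is a mouse line of multipotent haematopoietic progenitors, labelled as resembling lymphoid-primed multipotent progenitors and kept growing by an estrogen-regulated Hoxb8 protein. All cells were grown with estradiol and FLT3 ligand, with no further treatment. The groups were the antibodies against Spi1 (PU.1), Fli1, Erg, Runx1, Cebpa, Cebpb, Tal1, Lyl1, Lmo2, Gata2, Meis1, Gfi1 and Gfi1b, with 1 library each. For a rabbit IgG library no peak list was used here. Fixation was for 10 min in 0.4% or 1% formaldehyde. All libraries come from 1 cell line, so they show binding in a cultured progenitor and not in mature neutrophils or macrophages. Peak lists do not measure expression, and the labelled cell type could not be checked against its markers. With 1 library per factor there was no replicate check, and no difference was tested. Read depth is unknown, because the lists hold positions only. Their length ran from 3217 peaks for Gata2 to 76378 for Spi1.

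The oxidase transfers electrons from NADPH to oxygen across the phagosomal or plasma membrane and so makes superoxide, which phagocytes use to kill microbes. Its membrane part is flavocytochrome b558, made of the catalytic subunit gp91phox (Cybb, also called Nox2) and p22phox (Cyba). Cytosolic subunits, among them the organiser p47phox (Ncf1) and the phosphoinositide-binding p40phox (Ncf4), join it on activation together with the GTPase Rac2. Loss of oxidase function in humans causes chronic granulomatous disease. In human myeloid cells PU.1 is known to act on promoters of several of these genes.

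Binding was dense at 4 of the 5 genes and sparse at the catalytic subunit. Rac2 had 112 peaks of 12 factors, Ncf1 had 75 peaks of all 13, Ncf4 had 57 peaks of 11 and Cyba had 46 peaks of 11. Cybb had 6 peaks of 4 factors, although its locus, at 153 kb, was the longest of the 5. The median of the 5 genes was 57 peaks and 11 factors, against 21 peaks and 9 factors over all protein-coding genes. A peak was present for 51 of the 65 combinations of gene and factor, beside 57.6% of all such combinations over all genes. Of the 14 combinations without one, 9 were at Cybb.

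**Figure D1:**
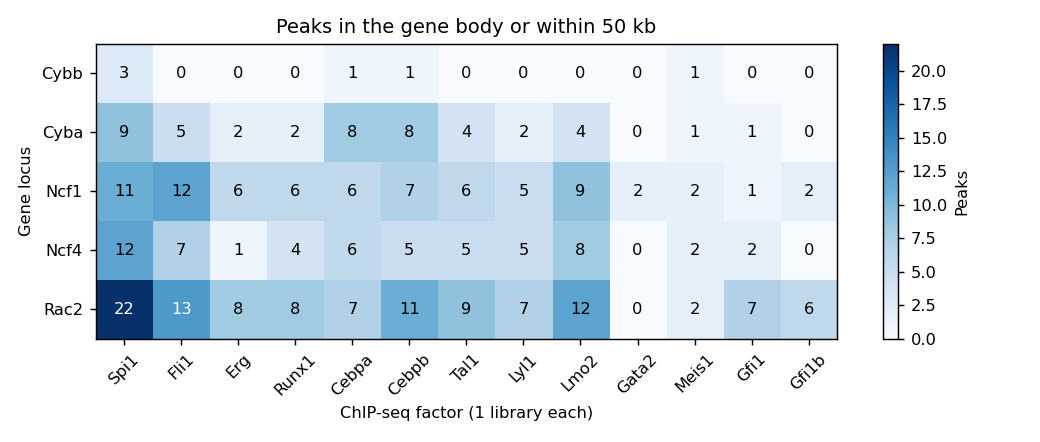
Peaks of each factor (columns, 1 library each) at each oxidase gene (rows), counted in the gene body and 50 kb either side. Rac2 has the highest count, 22 peaks of Spi1, and in the Cybb row 9 of the 13 factors have none.

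**Figure D2:**
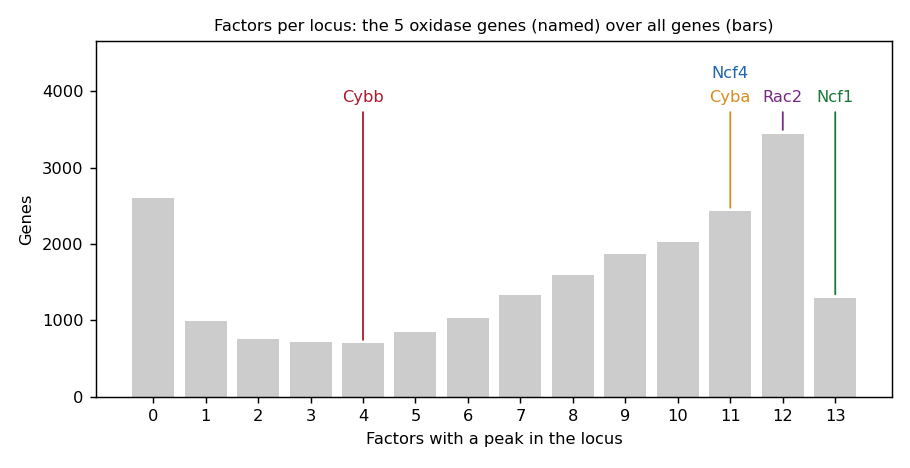
Number of factors with a peak in the locus (horizontal axis) against the number of genes (vertical axis), with bars for all 21627 protein-coding genes and names for the 5 oxidase genes. Cybb lies at 4 factors, Cyba and Ncf4 at 11, Rac2 at 12 and Ncf1 at 13.

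Spi1, Cebpa, Cebpb and Meis1 had a peak at all 5 genes. Over all protein-coding genes, Spi1, an ETS factor needed for myeloid development, had a peak at 84.7% of loci. The C/EBP factors Cebpa and Cebpb, known for their part in granulocyte and monocyte differentiation, had one at 74.3% and 75.5%. For these 3 factors the presence of a peak at all 5 genes is close to what the lists give at most genes. Meis1, a homeobox factor of stem cells, had a peak at 50.6% of all loci.

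Another 7 factors had a peak at every oxidase gene except Cybb. These were Fli1 (69.7% of all loci) and Erg (51.7%), further ETS factors, and Runx1 (56.8%), a core haematopoietic factor. The others were the basic helix-loop-helix factors Tal1 (56.8%) and Lyl1 (40.5%), the bridging protein Lmo2 (69% of all loci) and the zinc finger repressor Gfi1 (49.1%). At Cyba, every Erg, Runx1, Lyl1 and Gfi1 peak lay in a region 41.3 to 48.2 kb away that was nearest to a neighbouring gene. Cyba kept 7 factors with 10 kb on either side, and 6 when only peaks nearest to it were counted. Gfi1b, a relative of Gfi1, had peaks only at Ncf1 and Rac2 among the 5 genes (46.5% of all loci). Gata2, a factor of stem and mast cells, had them only at Ncf1 (23.2% of all loci). Its list is the shortest, and 1 of its 2 peaks there stood alone.

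All 5 genes had a shared region, that is, one with 2 or more factors, as had 79.3% of all loci. Across the 81 regions, 29 held 1 factor, 34 held 2 to 6 and 18 held 7 or more. Regions with 7 or more factors lay at 4 of the 5 genes, with 7 at Rac2, 6 at Ncf1, 3 at Ncf4, 2 at Cyba and 0 at Cybb. Over all genes, 40.6% of loci held such a region. Only 8 of the 18 were nearest to one of the 5 genes, with 3 each at Rac2 and Ncf1, 2 at Ncf4 and 0 at Cyba. With 10 kb on either side, or with each list shortened to its first 50%, Cyba had 0 such regions, which leaves 3 of the 5 genes with one. A region with 10 or more factors lay at Rac2 (2 of them), Ncf1 (1) and Ncf4 (1), beside 17.4% of all loci. The maps of the loci show these regions as columns of points, because the midpoints of different factors nearly coincided.

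**Figure D3:**
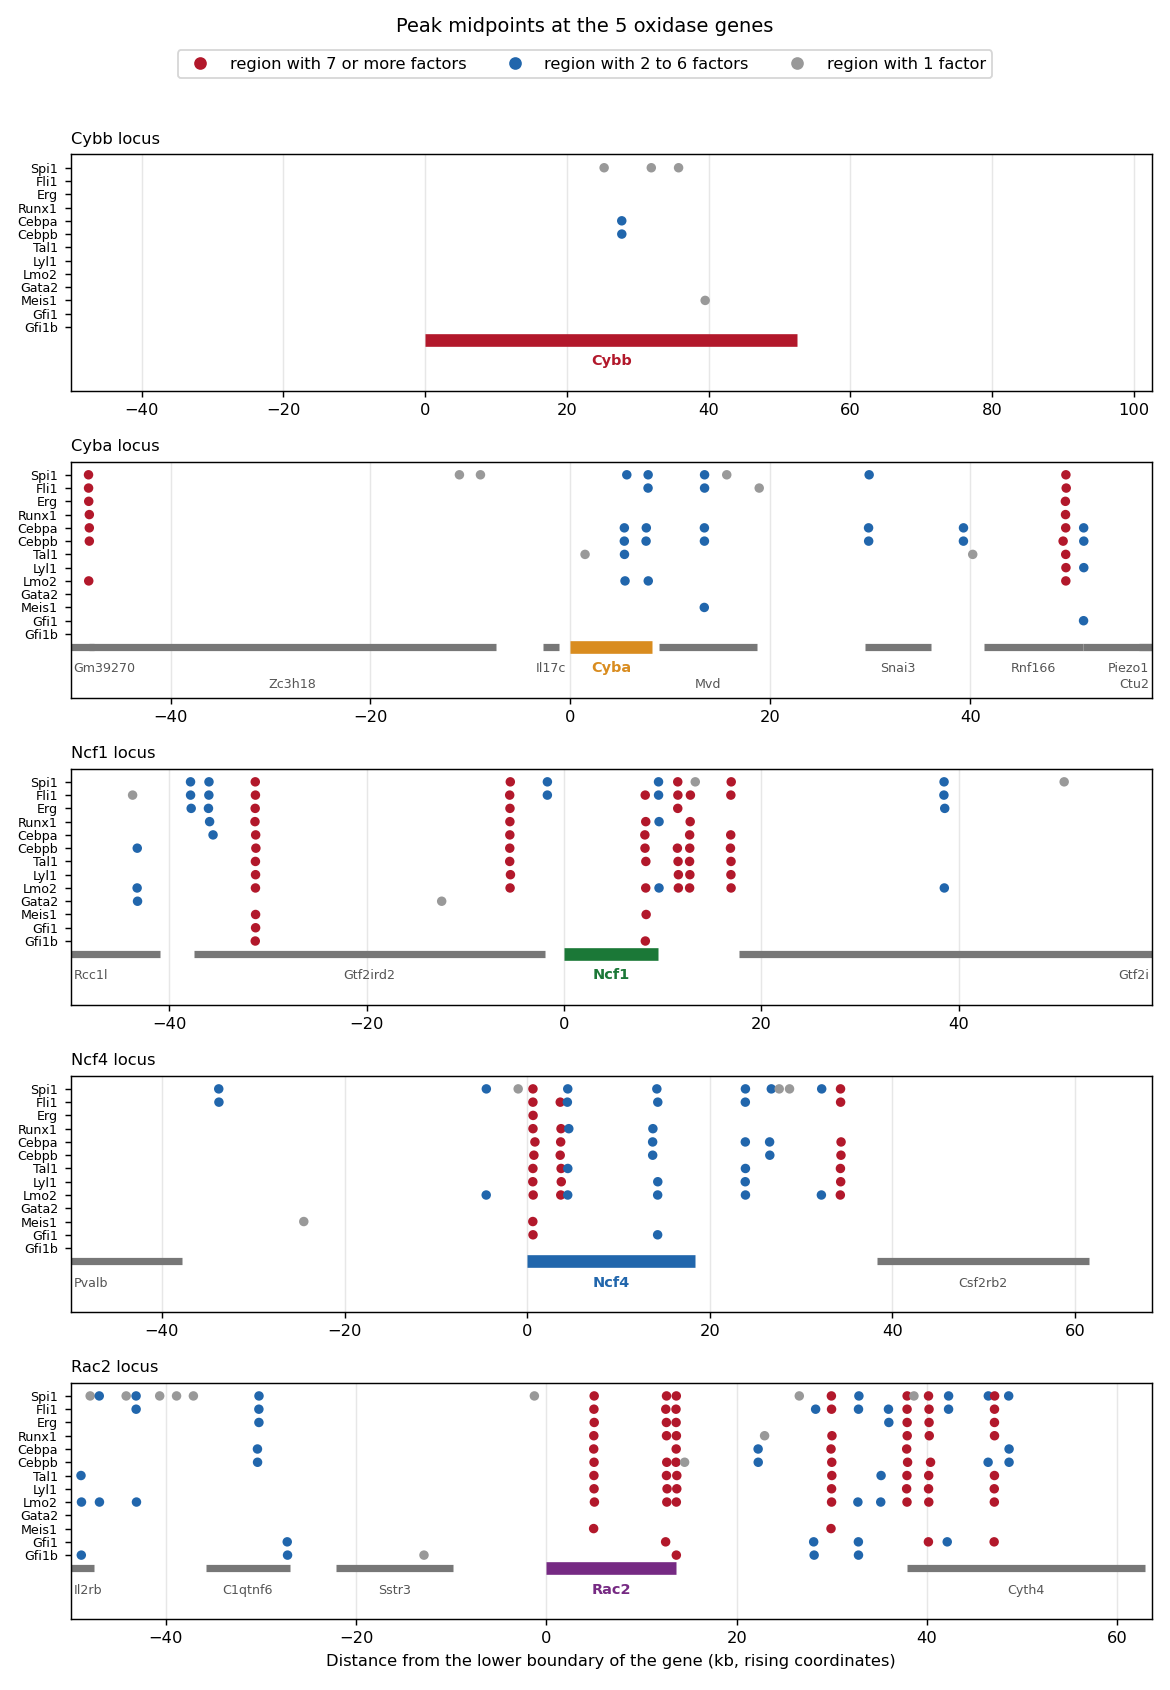
Midpoint of every peak (points) by factor (rows) and by distance in kb from the lower boundary of the gene (horizontal axis) at the 5 loci, with the named gene as a coloured bar and neighbouring protein-coding genes as grey bars. Cybb has no region with 7 or more factors, whereas Rac2 has 7 of them, of which 3 are nearest to Rac2.

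Cybb, on the X chromosome at chrX:9435252-9487766 (gene ID 13058), had 5 separate regions, all of them inside the gene interval of RefSeq. Spi1 had 3 peaks, at chrX:9460309-9460708, chrX:9466962-9467361 and chrX:9470812-9471211, and no other factor overlapped any of them. Cebpa and Cebpb shared 1 region, chrX:9462796-9463201, where their midpoints lay 6 bp apart. It was the only shared region of the locus. Meis1 had 1 peak alone, at chrX:9474561-9474960. The start site in the RefSeq promoter table is at base 9469324 on the minus strand, 18.4 kb inside the interval. Relative to it, the Spi1 peaks lay 8.82 kb and 2.16 kb downstream and 1.69 kb upstream. The C/EBP region lay 6.33 kb downstream and the Meis1 peak 5.44 kb upstream. No factor had a peak midpoint within 1 kb of this start.

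For the X chromosome Cybb was not poor in peaks. It had 3.93 peaks per 100 kb of locus, against a median of 2.32 over the 966 protein-coding genes of the X chromosome and of 15.8 over all genes. Of the X-linked genes 58.3% had fewer peaks in the locus, while of all genes 23.3% had fewer. The locus holds no other protein-coding gene, so none of its peaks was nearer to another one.

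Cyba, at chr8:122424771-122432940 (gene ID 13057), had 14 regions in a crowded locus with 8 neighbouring protein-coding genes. Only 3 of the regions were nearest to Cyba itself, and those 3 lay inside it. The region at chr8:122432143-122432761 held Cebpa, Cebpb, Fli1, Lmo2 and Spi1 and was centred 0.488 kb downstream of the start site. There the midpoints of Lmo2, Spi1 and Fli1 lay 379, 391 and 400 bp downstream of the start, and those of Cebpa and Cebpb lay 574 and 598 bp downstream. The ETS and Lmo2 peaks thus formed 1 group and the C/EBP peaks another. The region at chr8:122429967-122430614, 2.65 kb downstream of the start, held Cebpa, Cebpb, Lmo2, Spi1 and Tal1. The last region in the gene, chr8:122426038-122426437, held Tal1 alone.

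The regions of the Cyba locus with most factors lay at its edges. The one with most factors, 9, at chr8:122473869-122474577, was inside Rnf166, a RING finger gene, 41.3 kb above Cyba. A region with 7 factors at chr8:122376360-122376839 overlapped the promoter window of Zc3h18, 48.2 kb below. Between them, a region with 5 factors at chr8:122437967-122438395 lay in Mvd, a gene of the mevalonate pathway, and held the only Meis1 peak of the locus. All 8 shared regions of the Cyba locus held both Cebpa and Cebpb, and 6 of them also held Spi1. At Rac2, in contrast, 7 of 20 shared regions held both C/EBP factors. At Ncf1 it was 5 of 12 and at Ncf4 5 of 11. Over the 5 loci it was 26 of 52, against 54.3% of all 53252 shared regions.

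Ncf1, at chr5:134220053-134229628 (gene ID 17969), had 16 regions, 12 of them shared. Its own start was bound. The region chr5:134229436-134229888, centred 0.037 kb upstream of the start site, held Fli1, Lmo2, Runx1 and Spi1. The midpoints lay 10 bp (Spi1), 14 bp (Fli1), 59 bp (Lmo2) and 63 bp (Runx1) upstream of the start. No C/EBP, Tal1 or Lyl1 peak was in it, while each of the nearest 3 regions with 7 or more factors held both Cebpb and Tal1. One of these lay inside the gene at chr5:134228050-134228579, 1.31 kb downstream of the start, with 8 factors and without Spi1. The others, with 7 factors each, lay 1.97 kb upstream at chr5:134231349-134231848 and 3.20 kb upstream at chr5:134232582-134233065. Of this pair the first held Erg and Spi1, and the second held Cebpa and Runx1 in their place.

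The RefSeq promoter table (GRCm38.p6) gives a window of 300 bases, 250 before the start site and 50 after, for 3 of the 5 genes: Ncf1, Cyba and Cybb. They are shown because they differ in binding, with 4 factors on the window of Ncf1, none on that of Cyba but 5 just downstream, and none within 1 kb of the start of Cybb. All 3 are on the minus strand and are printed 5′ to 3′. Capitals mark matches, on either strand, to the ETS core GGAA and to TGNGGT, a loose form of the Runx motif. N stands for any base.
Ncf1, chr5:134229576-134229875: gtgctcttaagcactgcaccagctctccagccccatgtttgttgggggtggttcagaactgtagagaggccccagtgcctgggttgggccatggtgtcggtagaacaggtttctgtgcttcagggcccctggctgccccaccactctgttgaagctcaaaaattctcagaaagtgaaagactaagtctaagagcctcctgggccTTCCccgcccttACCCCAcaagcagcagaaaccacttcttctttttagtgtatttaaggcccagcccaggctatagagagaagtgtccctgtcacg
Cyba, chr8:122432891-122433190: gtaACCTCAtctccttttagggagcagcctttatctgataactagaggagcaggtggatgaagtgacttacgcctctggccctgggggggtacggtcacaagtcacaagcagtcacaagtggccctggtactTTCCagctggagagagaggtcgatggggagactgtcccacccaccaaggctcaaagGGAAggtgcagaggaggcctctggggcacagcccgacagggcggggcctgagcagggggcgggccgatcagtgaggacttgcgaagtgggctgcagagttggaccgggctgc
Cybb, chrX:9469275-9469574: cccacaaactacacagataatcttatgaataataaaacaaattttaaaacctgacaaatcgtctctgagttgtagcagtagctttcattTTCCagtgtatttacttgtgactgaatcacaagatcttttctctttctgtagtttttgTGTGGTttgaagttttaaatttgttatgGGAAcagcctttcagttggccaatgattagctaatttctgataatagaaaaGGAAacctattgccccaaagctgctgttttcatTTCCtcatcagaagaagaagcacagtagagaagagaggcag

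The window of Ncf1 held 1 ETS core, at base 205 counted from its 5′ end, and 1 Runx match at base 217. Its bound ETS factors are Fli1 and Spi1. The window of Cyba held 2 ETS cores and 1 Runx match, and that of Cybb, with no peak on it, had 4 ETS cores and 1 Runx match. No window held the longer PU.1 motif GAGGAAGT, found in 3.20% of the 32851 windows of the table, or the C/EBP motif TTNNGNAA, found in 40.7%. The ETS core is in 96.0% of all windows and the loose Runx form in 45.8%. A match in any of these windows is therefore only a description. Of the other motifs searched on both strands, the GATA motif AGATAA (11.2% of windows) matched Cyba and Cybb. The E-box CANNTG (72.3%) matched Cyba at 3 places and Cybb at 1, and its form CAGATG (17.2%) matched none. The Gfi motif AATCNC (33.2%) matched Cybb, and the Meis motif TGACAG (19.2%) matched Ncf1.

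The region with most factors of the whole group lay 31.3 kb below Ncf1, inside Gtf2ird2, a gene of the TFII-I family, at chr5:134188536-134189026. It held 12 factors, all but Gata2, in 491 bp. The midpoints spanned 91 bp, with Runx1 lowest and Cebpb highest. A region with 9 factors, chr5:134214351-134214827, also lay in Gtf2ird2, 5.46 kb below Ncf1, and a region with 7, chr5:134236726-134237202, lay 868 bp from Gtf2i. The Ncf1 locus was also the only one with Gata2 peaks. One stood alone at chr5:134207458-134207857, and the other shared chr5:134176591-134177032 with Cebpb and Lmo2, over the promoter window of Rcc1l. Of the 16 regions, 5 were nearest to Ncf1.

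Ncf4, at chr15:78244164-78262582 (gene ID 17972), carried its most shared region just inside its lower boundary. This region, chr15:78244584-78245217, held 11 factors, all but Gata2 and Gfi1b, and was centred 0.736 kb above that boundary. Its midpoints spanned 234 bp, against a median of 95 bp for the regions with 7 or more factors in the 5 loci. It held the only Erg peak of the locus. Another 4 regions lay inside the gene. At chr15:78247586-78248102 there were 7 factors without Spi1, and next to it chr15:78248371-78248926 held Fli1, Lmo2, Runx1, Spi1 and Tal1. The C/EBP factors with Runx1, at chr15:78257710-78258138, and Spi1 with Fli1, Lmo2, Lyl1 and Gfi1, at chr15:78258171-78258673, lay in neighbouring regions that did not touch.

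Of the 15 regions of the Ncf4 locus, 10 were nearest to Ncf4, the most for any of the 5 genes. Above the gene, at 5.48 kb, chr15:78267852-78268275 held 6 factors with midpoints within 24 bp. At 15.9 kb a region with 7 factors, chr15:78278267-78278748, lay 4.00 kb from Csf2rb2, which encodes a receptor subunit for interleukin 3 in mice. Spi1 was in 9 of the 11 shared regions of the locus and Lmo2 in 8. Below the gene Meis1 had a peak alone, at chr15:78219501-78219900. The promoter table used here has no window for Ncf4 or Rac2, so their positions refer to the lower and higher boundary of the gene.

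Rac2, at chr15:78559169-78572783 (gene ID 19354), had the densest binding, with 98.6 peaks per 100 kb of locus. Of all protein-coding genes, 0.0740% had a denser locus. Spi1 had 22 peaks there, Fli1 had 13, Lmo2 had 12 and Cebpb had 11. Tal1 had 9, Erg and Runx1 had 8 each, and Cebpa, Lyl1 and Gfi1 had 7 each. Gfi1b had 6, Meis1 had 2 and Gata2 had none. Of the 22 Spi1 peaks, 8 lay in regions without another factor, and 7 of the 31 regions were nearest to Rac2.

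A region with 10 factors covered the upper boundary of Rac2, at chr15:78572583-78573069, and lacked Gata2, Gfi1 and Meis1. Another with 10 factors lay in the gene at chr15:78563929-78564410, 8.61 kb below the upper boundary, and had Meis1 but neither Gfi1 nor Gfi1b. Between them, 1.01 kb below the upper boundary, chr15:78571495-78572043 held 9 factors, Gfi1 among them and Cebpa not. The remaining 4 regions with 7 or more factors were all nearest to Cyth4, a gene of the cytohesin family above Rac2. They held 9, 9, 9 and 8 factors, and the one at chr15:78596820-78597320 overlapped the promoter window of Cyth4. The last, chr15:78606017-78606465, had no C/EBP factor, which no other region with 7 or more factors in the 5 loci lacked. Gfi1 and Gfi1b met in 1 region on their own, chr15:78531730-78532162, in C1qtnf6 below Rac2.

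The shared regions of the oxidase loci can be set beside those of the lists as a whole. Of the 52 with 2 or more factors, 18 had 7 or more (34.6%, exact 95% interval 22.0 to 49.1), against 16.0% of all 53252 such regions. Fli1 was in 67.3% of the 52 (52.9 to 79.7), against 39.8% of all, and Lyl1 in 36.5% (23.6 to 51.0), against 16.7%. Erg was in 32.7% (20.3 to 47.1), against 16.8%, and Runx1 in 36.5% (23.6 to 51.0), against 20.9%. Lmo2 was in 63.5% (49.0 to 76.4), against 46.2%, and Tal1 in 42.3% (28.7 to 56.8), against 26.5%. Spi1 was in 73.1% (59.0 to 84.4), against 59.4%, and Gfi1 in 21.2% (11.1 to 34.7), against 16.5%. For Gata2 it was 1.92% (0.0487 to 10.3), against 1.78%. Cebpa was in 53.8% (39.5 to 67.8), against 59.6%, and Meis1 in 11.5% (4.35 to 23.4), against 15.1%. Cebpb was in 59.6% (45.1 to 73.0), against 62.2%, and Gfi1b in 13.5% (5.59 to 25.8), against 14.8%. These intervals, from the Clopper-Pearson method, cover counting error only and are a description, not a test against all regions. Regions of 1 locus share neighbourhood and library, 20 of the 52 are at Rac2, and a share per factor rises where regions hold more factors.

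**Figure D4:**
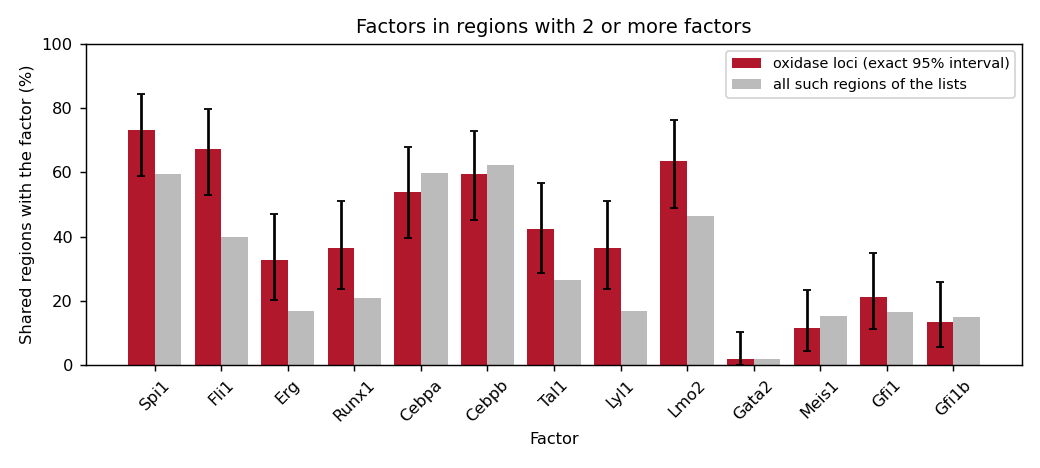
Percentage of regions with 2 or more factors that held each factor (vertical axis), for the 52 regions of the oxidase loci (red, with exact 95% intervals) and for all 53252 such regions (grey). Fli1, at 67.3% against 39.8%, has the widest gap, and Cebpa, at 53.8% against 59.6%, is one of those lower in the loci.

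In the 18 regions with 7 or more factors, Fli1 and Lmo2 were always present, against 94.0% and 97.8% of all 8533 regions of this kind. Cebpb and Tal1 were in 17 each (94.4%), against 88.3% and 86.3% of all. Spi1 and Runx1 were in 15 each (83.3%), against 88.5% and 68.6%. Lyl1 was in 16 (88.9%), against 73.3%, Cebpa in 14 (77.8%), against 84.6%, and Erg in 12 (66.7%), against 63.3%. Gfi1 and Meis1 were in 5 each, Gfi1b in 3 and Gata2 in 0. For Gata2 the exact 95% interval reaches 18.5%, and its share of all 8533 was 4.54%. Meis1 was in 27.8% of the 18 (9.69 to 53.5), against 42.7% of all. Gfi1 was in 27.8% of the 18 (9.69 to 53.5), against 50.5% of all, and Gfi1b in 16.7% (3.58 to 41.4), against 40.8%. Gfi1 and Gfi1b occurred together in 5.56% (0.141 to 27.3), against 33.6%. The value for the loci is 1 region of the 18. Over the 52 shared regions the pair was in 7.69% (2.14 to 18.5), against 11.2%. Tal1, Lyl1 and Lmo2 were together with Fli1 in 16 of the 18 (88.9%, 65.3 to 98.6), against 66.8%.

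Within these regions the peaks of different factors lay close together. The midpoints of a region spanned 95 bp at the median, with a range from 49 to 309 bp, against a median of 127 bp over all 8533. Measured from the centre of the region, the median midpoint was 8 bp for Lyl1, 6 bp for Tal1, 3 bp for Cebpb and 1.5 bp for Lmo2. It was -10 bp for Fli1, -11 bp for Spi1, -17 bp for Cebpa and 13 bp for Runx1. It was -12.5 bp for Erg, -16 bp for Gfi1b, -41 bp for Meis1 and -75 bp for Gfi1, the last 3 over no more than 5 regions each. The range of each of the 12 factors overlapped those of the others. All peaks are 400 bp wide, and strand was not taken into account. The centre is midway between the outermost ends of the merged peaks, so the outermost midpoints lie equally far on either side of it. Merging joins only peaks that touch or overlap, so neighbouring midpoints of a region are at most 400 bp apart. Closeness and medians near the centre are thus partly set by these definitions.

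**Figure D5:**
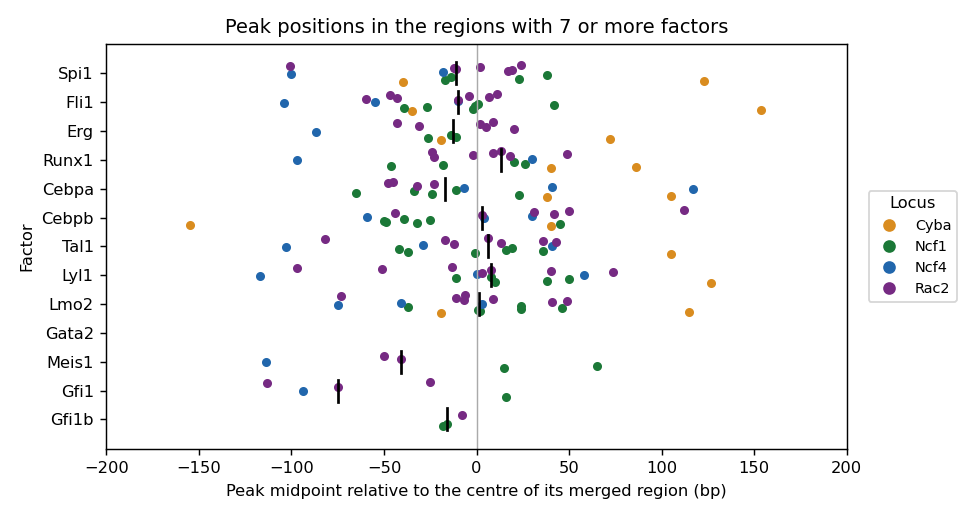
Midpoint of each peak relative to the centre of its merged region in bp (horizontal axis), by factor (rows), for the 18 regions with 7 or more factors, coloured by locus; black bars are medians over regions. Most points lie within 100 bp of the centre, and the widest spread, 309 bp, is that of the region in Rnf166 at the Cyba locus.

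The factors differed in how often they stood alone at these genes. Spi1 had 19 of its 57 peaks in the loci in regions of its own, and 58.5% of its whole list was so. None of the 28 Cebpa, 33 Lmo2, 19 Lyl1, 17 Erg or 11 Gfi1 peaks was alone. In their whole lists few peaks were: 9.39% for Cebpa, 7.89% for Lmo2, 0.326% for Lyl1, 0.499% for Erg and 7.28% for Gfi1. Of the 8 Meis1 peaks, 2 were alone, at Cybb and Ncf4, and 5 lay in regions with 7 or more factors. In the whole Meis1 list 41.5% of peaks were alone and 26.6% lay in such regions.

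By their 13 peak counts Ncf1 and Ncf4 were the most alike of the 5 genes, with a Bray-Curtis similarity (1 for equal counts) of 0.833. Ncf1 and Rac2 followed at 0.781 and Cyba and Ncf4 at 0.777. Cybb was at most 0.231 like another member, Cyba. Genes elsewhere came closer to each of them. Stard10 (0.935) was most like Rac2, and those most like Ncf1 were Brd7 (0.908) and Cyp1a1 (0.904). Mfng (0.932) and Rita1 (0.927) were most like Ncf4, and Rbfa (0.945) and Lactb (0.944) most like Cyba. For Cybb 9 genes had the same 13 counts, Cybrd1 and 4930444G20Rik being the first by alphabet. These similarities were taken over 13 libraries and 21596 genes, and weigh the number of peaks as well as which factors they belong to.

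Genes that work with the oxidase had a median number of peaks near that of the 5 genes themselves, with no allowance for locus length. Of 12 genes for oxidase partners and regulators, 7 had a region with 7 or more factors (40.6% of all genes) and 6 had one with 10 or more (17.4%). With 12 genes these counts are not read as differing from all genes. The median of the 12 was 12 factors and 59.5 peaks. Vav1, which activates Rac proteins, had 95 peaks and Arhgdib, which holds small GTPases such as Rac2 inactive, had 91, both of all 13 factors. Dock2, another activator of Rac, had 90 peaks of 12 factors, but in a much longer locus. Per 100 kb of locus Dock2 had 13.7 peaks, below the median of 15.8 over all genes. Vav1 had 63.3 and Arhgdib 77.0. For the NADPH oxidase genes of other tissues the medians were lower. Over 9 of them the median was 8 factors and 13 peaks, against 9 factors and 21 peaks over all genes. Of the 9, 2 had a region with 7 or more factors (40.6% of all genes), which is not read as a difference either. Noxa1 had 31 peaks of 11 factors, Nox1 had 31 of 10 and Duox1 had 23 of 9, while Nox4 had none. The most peaks in this list, 41 of 7 factors, were at Noxo1, named after its value was seen. That is near the 46 of Cyba and above the 6 of Cybb. Duox1, Duox2, Duoxa1 and Duoxa2 are neighbours and share much of a locus. The medians over the 9 genes thus count some of the same peaks more than once.

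Of 8 genes for enzymes that make, convert or use superoxide and hydrogen peroxide, 5 had a region with 7 or more factors (40.6% of all genes) and 2 one with 10 or more (17.4%). With 8 genes these counts are not read as differing from all genes. Their median was 10.5 factors and 32 peaks. Mpo, the myeloperoxidase of neutrophil granules, had 103 peaks of all 13 factors, close to the 112 of Rac2. The peroxiredoxin gene Prdx1 had 39 peaks of 13 factors, and the cytosolic superoxide dismutase gene Sod1 had 31 of 12. At the lower end, named after their values were seen, the mitochondrial superoxide dismutase gene Sod2 had 16 peaks of 7 factors, the catalase gene Cat had 19 of 6 and the extracellular superoxide dismutase gene Sod3 had 14 of 4. These 3 had no region with 7 or more factors.

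A peak midpoint lay within 1 kb of the gene start at 4 of the 5 genes, beside 52.4% of all protein-coding genes. The start was that of the promoter table for Cyba, Ncf1 and Cybb, and either boundary of the gene for Ncf4 and Rac2. Cybb was the gene without one. Of the 81 regions, 16 lay inside the oxidase genes, and 30 were nearest to one of them. The other 51 were nearer to, or inside, another protein-coding gene, and binding in them cannot be assigned to either gene from positions alone.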

How the data were processed

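Peak lists of 13 ChIP-seq libraries, 1 per factor, were analysed. The tools MACS2, Bowtie2 and bedtools and the builds GRCm38 and mm10 are named, per the submitters' processing notes. Their versions and roles, the threshold for peaks and whether IgG served as control are not stated in the sources used here. The authors deposited chromosome, start and end of each peak, in bp and with no score, and every peak is 400 bp wide. The depth behind a list is unknown and can set its length, so lengths were not read as amounts of binding.

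Coordinates count from 1. Peaks on the 19 autosomes and the X chromosome were used, leaving out 1 line of Cebpa and 2 of Cebpb. Gene intervals came from RefSeq (GRCm38.p6), and start sites from its promoter windows, which 17273 protein-coding genes have. The gene table holds no exons, so exons, introns and UTRs were not told apart. No genome sequence was used here, so motifs were searched only in promoter windows.

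Peaks that touched, or overlapped by at least 1 bp, were merged. A region belonged to a locus if a midpoint of its peaks lay there, and was nearest to the gene that held its centre or had the closest boundary. The same counts were made for all protein-coding genes as background. Merging and counting were tested on simulated data and against bedtools. Python 3.11.15, pandas 2.3.3 and scipy 1.17.1 were used.

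The members, the lists of other genes and the alternatives were chosen with earlier results of these data known. Named were the 5 members, the region with most factors at each, other shared regions, the 3 genes of each other list with most factors, list genes with no peak, and the 2 genes most like each member by Bray-Curtis similarity. A gene taken by this rule is not reported here.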

Additional observations from a re-analysis of the deposited data

How the results depend on the processing

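With 10 kb either side there were 147 peaks, 36 regions, 23 shared regions and 10 regions with 7 or more factors, and with 100 kb there were 123 regions. With each list shortened to its first 50% of lines there were 181 peaks, 51 regions and 8 regions with 7 or more factors. The lists hold no score, so these lines cannot be taken as the stronger peaks. Counting only peaks nearest to the gene left 122 peaks. All other changes in the 7 main counts, under these settings, any overlap with the locus, other merging distances, other start windows or without the Spi1 list, were within 1.5-fold. The combinations of gene and factor stayed between 44 and 53. The factors at Cyba fell from 11 to 7 with 10 kb either side and to 6 by nearest peaks, and were 12 with 100 kb. Cybb had the fewest peaks under every setting, 3 to 6, and no region with 7 or more factors. Cyba had 0 such regions with 10 kb either side and with the first 50% of lines, 1 without the Spi1 list and 5 with 100 kb. The order of the others did change. Ncf1 led with 10 kb (45 peaks, against 34 at Rac2), and Ncf4 led by nearest peaks (44, against 34 at Rac2). With 10 kb either side the medians were 34 peaks and 11 factors for the 5 genes and 7 peaks and 5 factors for all genes. Within 0.5 kb of the start 3 genes had a peak, and within 2 kb all 5 did. No paired analysis was possible because each factor has 1 library. Unknown depth and calling thresholds limit all counts, and absence of a peak does not show absence of binding.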
